A study of Mus musculus with 16 samples.

Results

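The comparison of tumour-associated macrophage (TAM) depleted with control tumours of the Type 1 kind used 8 of the 16 libraries of a bulk RNA-seq series on mouse glioblastoma models. The 8 libraries were chosen by their labels, 5 from Type 1 Control tumours and 3 from Type 1 TAM depleted tumours. Each library was 1 tumour of a transplanted model, given in the series title as lineage-based, and the tissue was labelled as tumour. The sources used here do not say how the macrophages were depleted, nor the genotype of the tumour cells or the strain, age and sex of the hosts. The other 8 libraries, from Type 2 tumours, entered only for their background level and in fits over 16 libraries. By the title, the series asks whether tumours of these models progress without TAMs. Nothing in the labels ties tumours to separate litters or days, so p-values measure only the spread between these samples.

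TAMs are the most abundant immune cells of glioblastoma. They arise from resident microglia and from blood monocytes that enter the tumour, and both kinds depend on signalling through the receptor of colony stimulating factor 1, the product of Csf1r. F4/80 (Adgre1) and the mannose receptor CD206 (Mrc1) are classical surface markers of tissue macrophages, Tmem119 and P2ry12 of microglia, and Ccr2 of monocytes.

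The control libraries were shallower than the depleted ones, with 5873117 to 7677549 recovered reads against 14287031 to 15982477, and they held far more background. Reads in olfactory and vomeronasal receptor genes, which a brain tumour is not known to express, measured this background. They came to 5057, 6148, 5314, 6091 and 3930 RPM (reads in every 1000000 recovered reads) in the 5 controls, and to 520, 551 and 197 in the 3 depleted tumours. The groups did not overlap, and the control mean of 5308 ± 906 (SD, n = 5) was 12.6-fold that of the depleted tumours, 423 ± 196 (SD, n = 3; 2-sided exact permutation test over 56 splits, p = 0.0357, the smallest this design allows). Genes of liver, heart, muscle, pancreas, testis, lens and skin followed, with 118 ± 28.2 RPM (SD, n = 5) in the control group against 27.8 ± 10.4 (SD, n = 3) in the depleted group (exact permutation p = 0.0357). In the Type 2 tumours, receptor reads overlapped widely between control and depleted tumours, at 3650 ± 3899 (SD, n = 4) and 2225 ± 2756 RPM (SD, n = 4; exact permutation p = 0.571). In Type 1, therefore, background and depletion cannot be told apart by a fit to these 8 libraries.

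The largest single share of control reads lay in predicted gene models over a repeat. Of 8 such models on the list, 7 were in the table, and they took 17.7 to 37.3% of the reads of a control library against 0.249 to 2.16% of a depleted one. Gm10800 alone, a predicted gene on the minus strand of chromosome 2 (GRCm38, 98666547 to 98667301), held 16.5 to 34.9% of control reads and 0.232 to 2.02% of depleted reads. Its sequence is shown because these models hold the largest share of control reads. The line gives bases 127 to 366 of the 660 bases of its transcript in GENCODE vM21, 5′ to 3′, with the 30 bases that all 22 transcripts of the 8 models share in capitals.
Gm10800: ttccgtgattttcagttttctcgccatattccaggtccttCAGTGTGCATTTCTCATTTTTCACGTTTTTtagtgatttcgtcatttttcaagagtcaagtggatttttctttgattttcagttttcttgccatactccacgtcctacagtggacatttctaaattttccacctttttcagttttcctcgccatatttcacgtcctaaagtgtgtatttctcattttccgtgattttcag
The 30-base run occurs in 29 of 141767 annotated transcripts, from 13 gene models, of which 11 were tested. All 11 were lower in the depleted tumours.

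**Figure D1:**
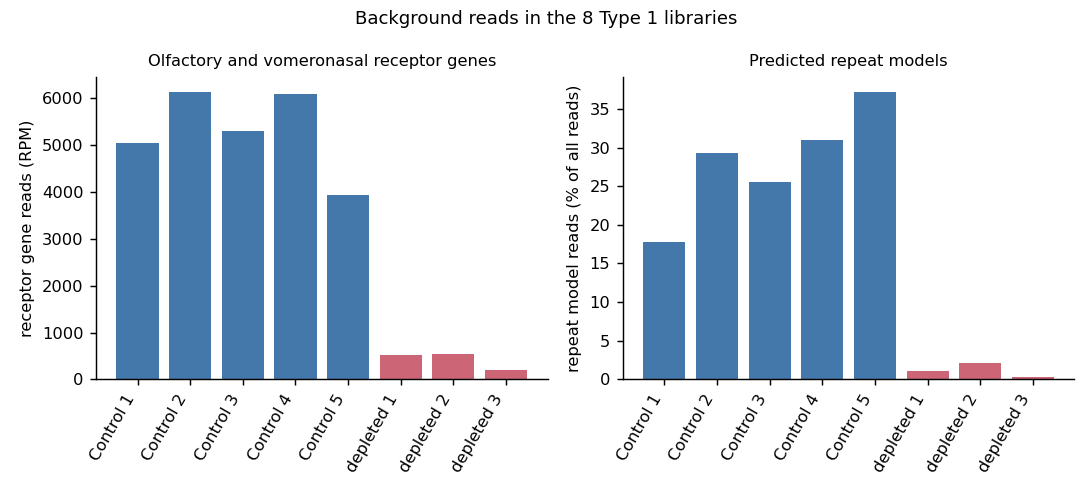
Bars give, for each of the 5 control and 3 TAM depleted Type 1 libraries, reads in olfactory and vomeronasal receptor genes in RPM (left) and the percent of reads in predicted repeat models (right). Every control library stands above every depleted one, at 3930 to 6148 against 197 to 551 RPM in receptor genes.

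The choice of scale decided the direction of most expressed genes. On the scale of the deposited table, 6699 of 29708 genes tested were higher in depleted tumours (22.5%) and 9682 were lower (32.6%; limma, Benjamini-Hochberg adjusted p below 0.05). Genes were then ordered by level per kb of exon relative to the mean of the receptor genes, and the 6762 genes at 10 or more times that mean are called expressed here. Of these expressed genes, 4431 were higher (65.5%) and 33 lower (0.488%), and the median log2 fold change was 0.92, with 118 of them below 0. The 15 housekeeping genes had a median of 1.04, and Polr2a, the large subunit of RNA polymerase II, gave 1.12 ± 0.21 (SE; adjusted p = 0.0019).

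A second scale therefore set the median ratio over the 2000 most abundant genes to be equal in all libraries. On this abundant-gene scale 8 genes were higher (0.0269%) and 13809 lower (46.5%), and the median over expressed genes was -0.08, with 4457 of 6762 below 0. Besides the 4 named later, the 8 were the predicted models Gm28119, Gm26871, Gm4432 and Gm49526. Polr2a then ranged from 1217 to 1819 normalized counts in the controls and from 1518 to 1637 in the depleted tumours, a log2 fold change of 0.10. Most log2 fold changes below are given on both scales, which differ by about 1 for abundant genes.

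Fold change followed level on either scale. On the abundant-gene scale the median log2 fold change was -2.86 for the 9555 genes under 2 times the receptor mean, -0.73 for those at 2 to 10 times, -0.09 at 10 to 50 times and 0.01 for the 865 genes at 50 times or more. The receptor genes had a median of -3.28 on the deposited scale, with 1246 of 1266 lower, and -3.95 on the abundant-gene scale. Vmn2r53, a vomeronasal receptor, had 190, 317, 254, 315 and 257 normalized counts in the controls and 22.3, 29.2 and 11.3 in the depleted tumours. Tg, the thyroglobulin gene of the thyroid, had 121 to 217 in controls and 5.30 to 41.6 in depleted tumours. For each gene the expected background was computed from its exon length and the receptor reads of the same library, and subtracted as a further setting on the abundant-gene scale. After subtraction 301 of 28544 genes were higher (1.05%) and 1159 lower (4.06%), and the median over all genes was 0.03. Of the 301 higher genes, 295 lay under 2 times the receptor mean and 1 was at an expressed level. Of the 1159 lower genes, 337 lay under 2 times and 24 were at an expressed level. The receptor genes then had a median of -0.94, with 48 of 1225 lower. Background was estimated from these same genes, and values under 0 were set to 0. Their median therefore cannot show how complete subtraction was for other genes.

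**Figure D2:**
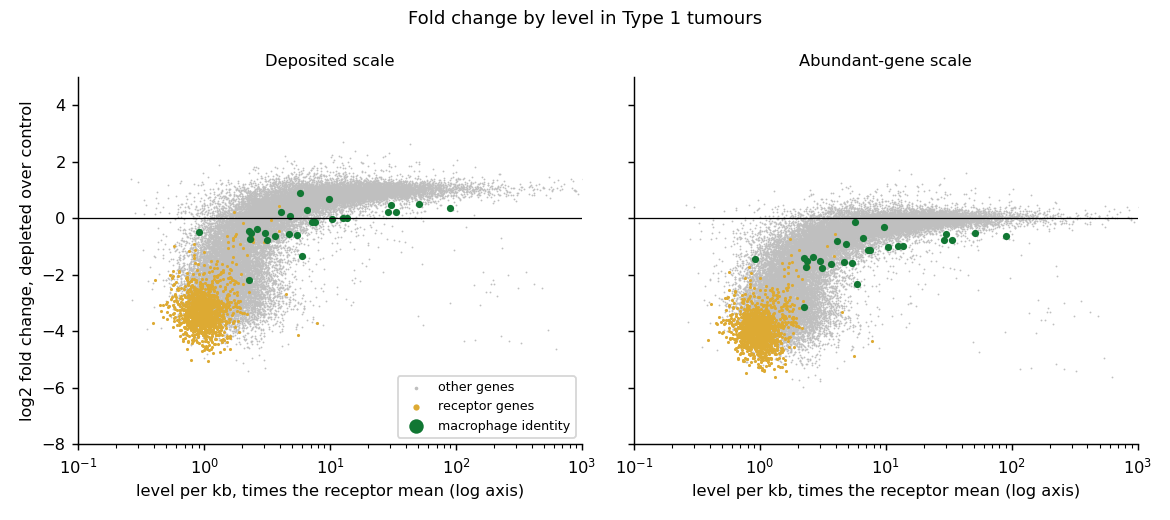
Each point is a gene, with its mean level per kb relative to the mean of the receptor genes on a log axis and its log2 fold change, TAM depleted over control, on the deposited scale (left) and the abundant-gene scale (right). Receptor genes lie at the low end around -3.28 and -3.95, the macrophage identity genes are marked, and abundant genes level off near 1 on the left and near 0 on the right.

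Macrophage identity genes had a lower median fold change than genes of like level, and reads of Csf1r, Cd68 and C1qa remained in all 3 depleted tumours. The list of 27 macrophage identity and survival genes had a median level of 5.71 times the receptor mean, with 8 members at an expressed level. Its median log2 fold change was -0.12 on the deposited scale. On that scale the genes at 2 to 10 times the receptor mean had 0.25 and the expressed genes 0.92. On the abundant-gene scale the list's median was -1.12 and all 27 members were below 0, beside a median of -0.73 for genes at 2 to 10 times. After background subtraction the list's median was -0.68, with 22 of 27 below 0. Beside it stood 0.08 for expressed genes and 0.08 for the 12227 genes at 2 to 10 times the receptor mean. By the deposited scale 0 members were higher and 2 lower, Mrc1 and Adgre1, and by the abundant-gene scale 16 were lower. With background subtracted the same 2 genes were lower. These shares of 2 in 27 and 16 in 27 stand beside 32.6%, 46.5% and 4.06% of all genes. Without the third depleted tumour the list's deposited-scale median was 0.12, with 1 member higher and 1 lower, and without the second it was -0.31. Of the 27, 9 were lower on the abundant-gene scale without the first depleted tumour, with a median of -1.16. A change in the number of macrophages and a change in RNA per macrophage cannot be told apart in bulk tumour.

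Adgre1 (chromosome 17) had 148, 142, 79.7, 128 and 128 normalized counts in the 5 controls on the deposited scale and 54.9, 88.4 and 21.9 in the 3 depleted tumours. The third control lay below the second depleted tumour, and on the abundant-gene scale the groups separated, at 136 to 194 against 14.9 to 55.5. Its log2 fold change was -1.35 ± 0.41 on the deposited scale (SE; limma adjusted p = 0.017), -2.34 on the abundant-gene scale (adjusted p = 0.00029) and -2.08 after subtraction (adjusted p = 0.025). Without the third depleted tumour the deposited-scale value was -0.81 and missed the threshold (adjusted p = 0.054).

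Mrc1 (chromosome 2) had 92.2, 124, 73.6, 127 and 100.2 normalized counts in controls and 24.7, 44.5 and 8.62 in depleted tumours, with no overlap. Expected background came to 47.9% of its control level. The log2 fold change was -2.19 ± 0.44 on the deposited scale (SE; limma adjusted p = 0.0026), -3.16 on the abundant-gene scale (adjusted p = 9.9e-05) and -2.54 after subtraction (adjusted p = 0.029).

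Csf1r itself had 182, 167, 345, 179 and 232 normalized counts in controls and 157, 163 and 286 in depleted tumours, with wide overlap. The log2 fold change was -0.13 ± 0.31 on the deposited scale (SE; limma adjusted p = 0.73) and -1.14 on the abundant-gene scale (adjusted p = 0.025), where it missed the threshold without the first (-0.97, adjusted p = 0.11) or the second depleted tumour (-0.99, adjusted p = 0.095). After subtraction it was -0.81 (adjusted p = 0.49). Laptm5, a lysosomal membrane protein of blood cells, gave 0.01 on the deposited scale, -0.999 on the abundant-gene scale (limma adjusted p = 0.01) and -0.84 after subtraction (adjusted p = 0.17). It was named after its values were seen.

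Of the other macrophage genes, Cd68, C1qa and Aif1 did not pass on either scale. Cd68, a lysosomal glycoprotein, had 108 to 229 normalized counts in controls and 178, 496 and 105 in depleted tumours. C1qa, the A chain of complement C1q, had 154 to 442 in controls and 190, 594 and 201 in depleted tumours, so on this deposited scale the second depleted tumour held the highest level of both genes among the 8. Its C1qa on the abundant-gene scale, at 373, lay below the 505 of the fifth control. Aif1 (Iba1) had 17.7 to 64.1 in controls and 30.1, 49.2 and 34.5 in depleted tumours. Their log2 fold changes were 0.45, 0.24 and 0.06 on the deposited scale and -0.55, -0.77 and -0.92 on the abundant-gene scale. Ptprc, the pan-leukocyte antigen CD45, gave -0.52 (limma adjusted p = 0.16) and -1.52 (adjusted p = 0.00032), but 56.9% of its control level was expected background and subtraction left -0.31 (adjusted p = 0.80).

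**Figure D3:**
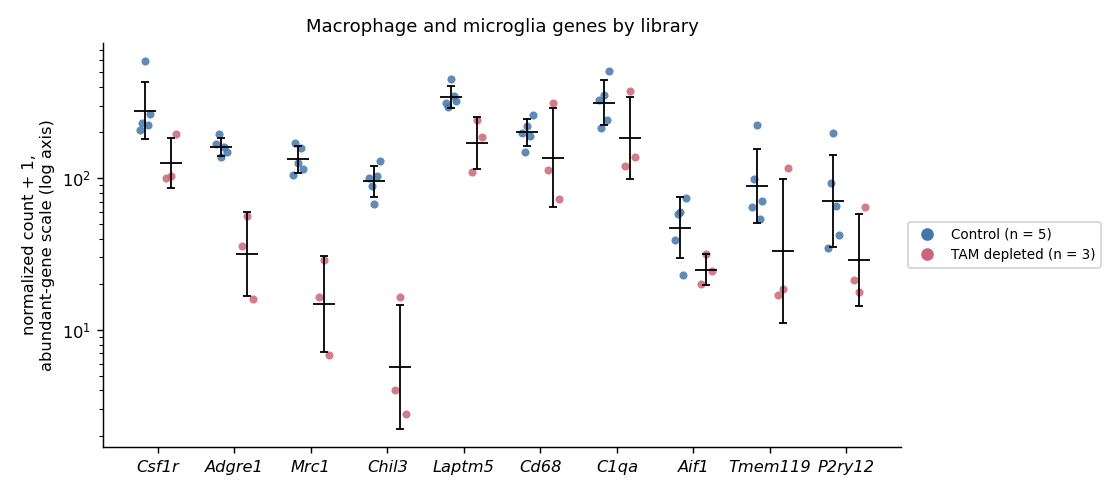
Points give the normalized count plus 1 on the abundant-gene scale (log axis) of 10 macrophage, monocyte and microglia genes in the 5 control and 3 TAM depleted libraries, with the mean and SD of log2 values as black marks. Adgre1, Mrc1, Chil3, Csf1r and Laptm5 do not overlap between groups on this scale, while Cd68, C1qa, Aif1, Tmem119 and P2ry12 do.

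Of the monocyte and marrow-derived macrophage list, 11 of 12 genes were tested, and 4 were lower (among them Chil3, Ccr2 and F10) and 2 higher (Vcan and Fn1, both matrix proteins) on the deposited scale, with a median of -1.22. These shares lie close to the 32.6% lower and 22.5% higher of all genes. The largest fall among them was that of Chil3, the chitinase-like protein Ym1 of alternatively activated macrophages and neutrophils. It had 88.4, 63.7, 38.8, 81.9 and 112 normalized counts in controls and 4.82, 24.6 and 2.65 in depleted tumours, with no overlap. The log2 fold change was -3.17 ± 0.58 on the deposited scale (SE; limma adjusted p = 0.0015), -4.06 on the abundant-gene scale (adjusted p = 7.7e-05) and -4.01 after subtraction (adjusted p = 0.013), and expected background was 16.5% of the control level. Ccr2 was lower on both scales, at -1.24 on the deposited scale and -2.21 on the abundant-gene scale. Expected background, however, came to 97.9% of its control level, and after subtraction it gave 2.06 (limma adjusted p = 0.49). The list's median without the third depleted tumour was 0.26 on the deposited scale and -0.79 on the abundant-gene scale, against -2.10 with all 8 libraries.

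Homeostatic microglia genes were low and variable in both groups. The 12 members had medians of -0.15, -1.14 and -0.47 on the deposited scale, the abundant-gene scale and after subtraction. On the deposited scale 1 was lower, Siglech, a lectin of microglia and plasmacytoid dendritic cells, at -1.19 ± 0.43 (SE; limma adjusted p = 0.036), and 56.1% of its control level was expected background. The list had 0 called lower without the second, the third or the fourth control or the second depleted tumour, and its deposited-scale median ran from -0.43 without the third depleted tumour to 0.01 without the second. On the abundant-gene scale 5 of the 12 were lower, and 3 to 9 when 1 library was left out. Of all genes, 32.6% were lower on the deposited scale and 46.5% on the abundant-gene scale. Tmem119 had 42.3 to 131 normalized counts in controls and 25.3, 27.9 and 170 in depleted tumours. P2ry12, a purinergic receptor, had 29.8 to 115 and 32.6, 26.6 and 92.8. For both genes the third depleted tumour stood apart from the other two. It had 116 on the abundant-gene scale for Tmem119 and 63.3 for P2ry12, against 52.4 to 223 and 33.6 to 197 in controls.

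The lipid-associated, cathepsin and complement lists had smaller median shifts on the abundant-gene scale than the -1.12 of the macrophage identity list. Their median levels were higher, at 19.5, 25.0 and 8.37 times the receptor mean against 5.71. After subtraction the identity list had -0.68, close to the -0.64 of the complement list. The 14 genes of the lipid-associated state had medians of 0.82, -0.19 and -0.05 on the deposited scale, the abundant-gene scale and after subtraction, and the 13 cathepsins and lysosomal hydrolases 0.80, -0.21 and -0.20. Of the first list 3 were higher on the deposited scale (Apoe, Cd63 and Ctsb) and of the second 6, among them Ctsd and Lamp1. These were 3 of 10 and 6 of 11 members at an expressed level, beside 65.5% of all expressed genes. Without the second depleted tumour 0 were higher in either list on the deposited scale. On the abundant-gene scale 0 were higher in either list, and Trem2, Axl, Ctsh and Ctsk were lower. Complement genes had medians of 0.25, -0.75 and -0.64, with 0 of 11 tested called on the deposited scale and 4 lower on the abundant-gene scale, among them C3, C3ar1 and C5ar1. That count ran from 2 to 8 when 1 library was left out, with 8 without the second depleted tumour. Of all genes, 46.5% were lower on the abundant-gene scale.

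MHC class II genes, which present antigen to helper T cells, were decided by 1 tumour. H2-Aa had 884, 121, 183, 471 and 850 normalized counts in controls and 830.3, 2161 and 4.64 in depleted tumours. Cd74, the invariant chain, had 540, 73.5, 162, 463 and 363 in controls and 440, 663 and 9.28 in depleted tumours. The third depleted tumour lay far below all others, and the first and second lay within the control range or above it. The 7 members had a median of -0.35 on the deposited scale and -1.31 on the abundant-gene scale, with 0 called on either. Without the third depleted tumour the medians were 1.20 and 0.16. MHC class I genes gave 0.64 and -0.36 as medians, with 0 of 11 called on either scale. Without the third depleted tumour these medians were 1.56 and 0.51, with 6 higher on the deposited scale and 0 on the abundant-gene scale. On the deposited scale without that tumour, 6301 of all 29708 genes and 4310 of the 6762 expressed genes were higher.

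Lymphocyte markers lay close to the expected background. T cell genes had a median of -1.47 on the deposited scale, with 5 of 12 lower, and expected background made up a median of 80.5% of their control levels. For NK cell genes the median was -2.04, with 6 of 7 tested lower and 70.5% expected background, and for B cell genes -1.84, with 5 of 8 lower and 71.0% expected background. Cd3d, a chain of the T cell receptor complex, had 11.5 to 21.8 normalized counts in controls and 6.03, 4.65 and 0 in depleted tumours. Ncr1, the NK receptor NKp46, had 15.3 to 39.6 and 7.24, 5.98 and 0. Their medians on the abundant-gene scale were -2.36, -2.78 and -2.63, with 10 of 12, 7 of 7 and 8 of 8 lower. Among all genes under 2 times the receptor mean, 71.4% were lower on the deposited scale and 89.3% on the abundant-gene scale. Without the third depleted tumour the T, NK and B cell medians on the deposited scale were -0.46, -1.15 and -0.92, with 3, 4 and 4 members lower. After subtraction 0 members of the 3 lists were lower and 1 T cell gene was higher, Cd247. Of all genes under 2 times the receptor mean, 3.09% were then higher and 3.53% lower.

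Expected background made up a median of 26.2% of the control levels of the interferon response genes. The 30 interferon response genes had medians of 0.01, -0.99 and -0.26 on the deposited scale, the abundant-gene scale and after subtraction. Rsad2 (viperin) was lower on the deposited scale, at -0.93 ± 0.27 (SE; limma adjusted p = 0.014), with 72.3 to 104 normalized counts in controls and 53.1, 50.5 and 32.5 in depleted tumours, and 14 members were lower on the abundant-gene scale, a share close to the 46.5% of all genes. Without the second depleted tumour 9 were lower there. Usp18, which removes ISG15 from proteins, gave -0.65 and -1.64 (limma adjusted p = 0.071 and 0.0014). Ifit3, a member at an expressed level, and Ifi27l2a, an interferon-induced gene outside the list, gave -1.44 and -1.35 on the abundant-gene scale and -0.44 and -0.37 on the deposited scale. Both were named after their values were seen. After subtraction 0 of 30 passed. Of 17 NF-kB feedback and cytokine genes, 5 were lower (1 without the second control) and 1 higher (Rela) on the deposited scale and 13 lower on the abundant-gene scale, and the median after subtraction was -0.04. Expected background made up a median of 52.7% of their control levels. Of all genes 32.6% were lower and 22.5% higher on the deposited scale, and 46.5% were lower on the abundant-gene scale. Il6, an inflammatory cytokine, gave -2.89 on the deposited scale and -3.65 on the abundant-gene scale, with 12.5 to 31.2 normalized counts in controls, 79.6% of them expected background, and 1.33 to 3.99 in depleted tumours.

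**Figure D4:**
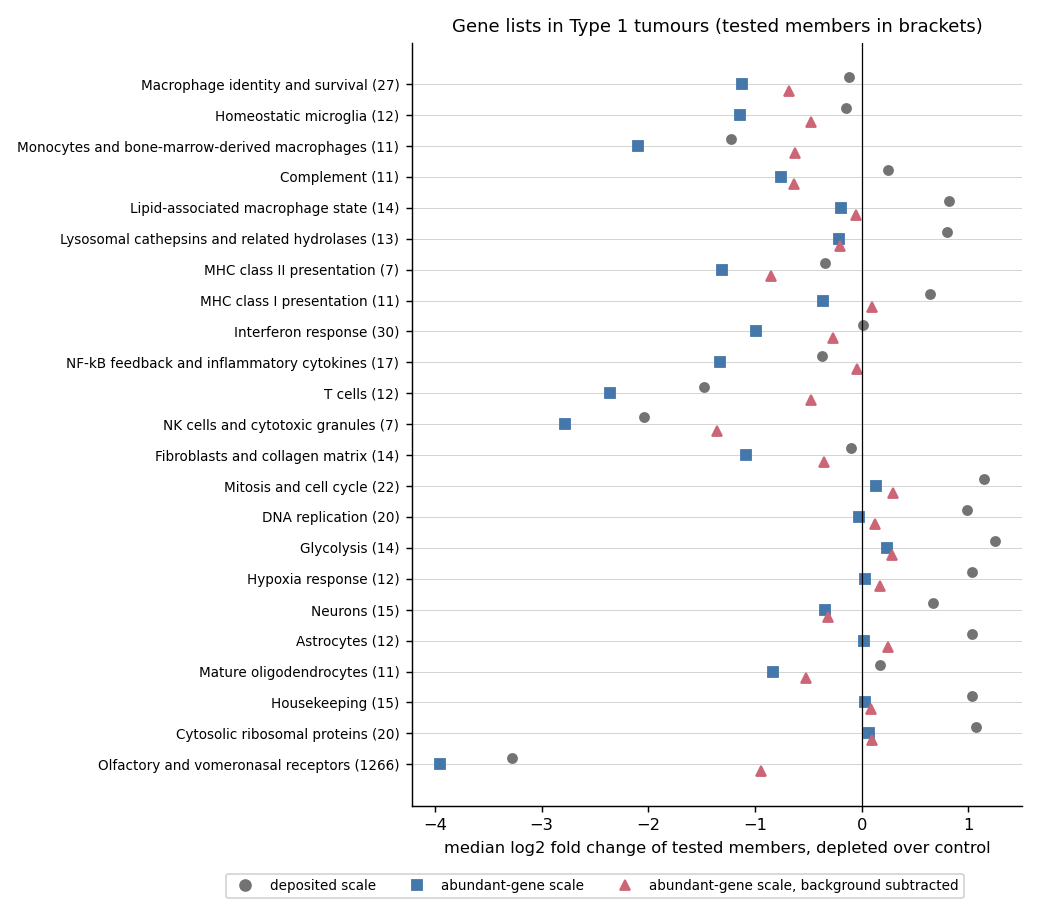
Symbols give the median log2 fold change, TAM depleted over control, of the tested members of 23 gene lists on the deposited scale (circles), the abundant-gene scale (squares) and the abundant-gene scale with expected background subtracted (triangles). Macrophage identity genes lie at -0.12, -1.12 and -0.68, housekeeping genes at 1.04, 0.03 and 0.08.

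Over the 8 libraries, proliferation genes moved close to the abundant genes on both scales. Of 22 mitosis and cell cycle genes, all at an expressed level, 15 were higher on the deposited scale, a share close to the 65.5% of all expressed genes. The median there was 1.15, and 0 were higher or lower on the abundant-gene scale, where it was 0.14. The 15 calls fell to 2 without the first depleted tumour, 4 without the second and 8 without the fourth control, with medians of 0.92, 0.99 and 1.09. On the abundant-gene scale the median ran from -0.07 without the first depleted tumour to 0.46 without the third, where 0 of 22 were below 0. Mki67, the marker Ki-67, had 3745, 2718, 1362, 2777 and 3920.0 normalized counts in controls and 10757, 7477 and 4800.4 in depleted tumours on the deposited scale. The groups did not overlap there, and overlapped on the abundant-gene scale, at 2321 to 4476 against 3273 to 6752. Its log2 fold changes were 1.42 ± 0.39 (SE; limma adjusted p = 0.012) and 0.40 ± 0.29 (SE; adjusted p = 0.32). Kif11, a mitotic kinesin, gave 1.34 and 0.33, and Uhrf1, which maintains DNA methylation at replication, 1.40 and 0.39. The 20 DNA replication genes had medians of 0.99 and -0.02, with 10 higher on the deposited scale, 0 to 16 when 1 library was left out, and 0 on the abundant-gene scale.

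Glycolysis genes had the highest median of the tumour lists, 1.25 on the deposited scale with 11 of 14 higher, and 0.24 on the abundant-gene scale with 0 called. The 11 became 7 without the second control or the second depleted tumour. Tpi1, triosephosphate isomerase, gave 1.66 and 0.65 (limma adjusted p = 0.0038 and 0.18). Vegfa, the angiogenic growth factor, had 281 to 738 normalized counts in controls and 1365, 4089 and 772 in depleted tumours, and gave 1.67 and 0.66 (limma adjusted p = 0.015 and 0.25). The second depleted tumour held most of this difference. Of 18 glioma drivers and suppressors 11 were higher on the deposited scale (6 without the first depleted tumour), and 1 was higher (Ccnd2) and 1 lower (Myc) on the abundant-gene scale. Among members at an expressed level, 9 of 12 drivers and suppressors and 10 of 13 glycolysis genes were higher on the deposited scale. The share of all expressed genes was 65.5%. Ribosomal protein genes had medians of 1.08 and 0.07, and housekeeping genes of 1.04 and 0.03.

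Among the largest rises, 4 genes kept a rise on both scales. There were 3367 genes that rose on the deposited scale with no overlap between groups, a mean of 50 or more in either group and an expressed level, predicted and unnamed gene models left out, and the 12 largest were Ndn, Uncx, Ccnd2, Serpinh1, Neat1, Hoxa6, Draxin, Islr2, Gria2, Zbtb20, Stmn2 and Xist. Groups did not overlap for 20.4% of all genes in this direction on the deposited scale and for 0.0808% on the abundant-gene scale, where 45.3% had no overlap in the other direction. Of the 6762 expressed genes, 3633 had no overlap in the direction of a rise on the deposited scale, and 18 on the abundant-gene scale. On the abundant-gene scale Ndn, Ccnd2, Serpinh1 and Zbtb20 were higher, though the groups overlapped for each, and 0 of the 12 passed when background was subtracted.

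Ndn, which encodes necdin, an imprinted growth suppressor of postmitotic neurons, had 309, 585, 149, 209 and 207 normalized counts in controls and 1766, 2410.4 and 961 in depleted tumours. Its log2 fold change was 2.62 ± 0.43 on the deposited scale (SE; limma adjusted p = 0.00088), 1.61 on the abundant-gene scale (adjusted p = 0.006) and 1.79 after subtraction (adjusted p = 0.076). Serpinh1, the collagen chaperone HSP47, had 174, 124, 80.7, 101 and 250.0 in controls and 957, 645 and 402 in depleted tumours. It gave 2.22 ± 0.39 (SE; limma adjusted p = 0.0012), 1.21 (adjusted p = 0.0089) and 1.44 (adjusted p = 0.074), and 0.93 on the abundant-gene scale without the first depleted tumour (adjusted p = 0.06).

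Ccnd2, cyclin D2 of the G1 phase, had 932, 299, 401, 280.0 and 207 normalized counts in controls and 2703, 1469 and 1259 in depleted tumours. Its log2 fold changes were 2.22 ± 0.44 (SE; limma adjusted p = 0.0024) and 1.21 (adjusted p = 0.04), and on the abundant-gene scale 5 of the 8 omissions of 1 library ended the call. Zbtb20, a zinc finger repressor of neural development, had 1990 to 3777 in controls and 8587, 13140.1 and 6639 in depleted tumours. It gave 1.86 and 0.85 (limma adjusted p = 0.00098 and 0.031), and again 5 of 8 omissions ended the call on the abundant-gene scale.

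The other 8 rises did not pass on the abundant-gene scale. Neat1, the RNA scaffold of paraspeckles, had 260 to 551 normalized counts in controls and 639, 6012 and 1651 in depleted tumours, so the second depleted tumour set its size. Neuronal genes were Gria2 (an AMPA receptor subunit), Stmn2 (a microtubule regulator of growing axons), Islr2 and Draxin (both of axon growth), at 1.93, 1.86, 1.96 and 1.98 on the deposited scale and 0.92, 0.85, 0.95 and 0.97 on the abundant-gene scale. The homeobox genes Uncx and Hoxa6 gave 2.22 and 2.16 and then 1.22 and 1.17. Xist, the RNA of the inactive X chromosome, had 3336 to 9925 in controls and 13700.2, 33090.1 and 24373 in depleted tumours, and gave 1.82 and 0.81.

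**Figure D5:**
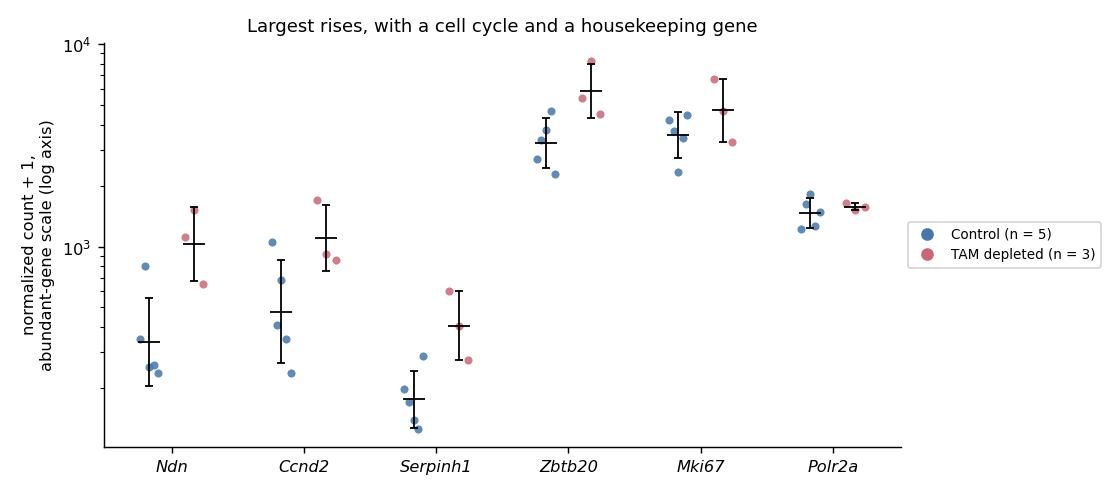
Points give the normalized count plus 1 on the abundant-gene scale (log axis) of the 4 rises that passed on both scales, with Mki67 and Polr2a, in the 5 control and 3 TAM depleted libraries, and black marks give the mean and SD of log2 values. Each of the 4 overlaps between groups on this scale, and Polr2a lies at 1217 to 1819 in controls and 1518 to 1637 in depleted tumours.

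Few expressed genes fell. Of the 33 expressed genes called lower on the deposited scale, 27 were predicted or unnamed gene models, which the rule for named genes leaves out, and 2 (Etv3l and S100a2) had a mean under 50. The other 4, all without overlap, were the mitochondrial ribosomal RNAs mt-Rnr2 and mt-Rnr1, Sfi1, a centrosomal protein gene, and Mroh2a. mt-Rnr2 had 3439, 1588, 892, 1310.0 and 2335 normalized counts in controls and 181, 294 and 158 in depleted tumours, a log2 fold change of -3.07 ± 0.40 (SE; limma adjusted p = 0.00035) on the deposited scale and -4.08 on the abundant-gene scale. mt-Rnr1 gave -3.01 and -4.01. The 13 protein-coding genes of the mitochondrial genome had medians of 0.86 and -0.16, with 0 lower on either scale. Sfi1 gave -1.15 and -2.16 (limma adjusted p = 0.0055 and 0.00012), with 407 to 648 normalized counts in controls and 292, 288 and 164 in depleted tumours. Mroh2a gave -0.88 and -1.89 (limma adjusted p = 0.04 and 0.00048), and its deposited-scale value missed the threshold without the third depleted tumour (-0.41, adjusted p = 0.20).

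Among named, expressed genes with a mean of 50 or more, the next 8 by p missed the threshold on the deposited scale, and 1 library decided 3 of them. The 8 were Platr19, Ighg2b, Scand1, Iglc1, Npy, Pcp4l1, Dlx6 and Gng4, at -2.37, -2.22, -1.46, -1.60, -0.78, -1.01, -0.68 and -0.87 on the deposited scale. The immunoglobulin genes Ighg2b and Iglc1 had 1707 and 283 normalized counts in the fifth control and at most 51.8 and 16.6 in any other library. Scand1 was at 0.665 in the second depleted tumour and at 37.8 to 167 elsewhere. When the expressed genes were fitted alone on the abundant-gene scale, 18 fell (0.266%) and 0 rose in limma, with 168 at an unadjusted p below 0.05. Of the 18, 10 held the repeat run printed above, 4 were other predicted models or pseudogenes (Gm9765, Gm10999, Gm12735 and Fau-ps2), and 4 were mt-Rnr2, mt-Rnr1, Sfi1 and S100a2, a calcium-binding protein.

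Of 14 fibroblast and collagen matrix genes 3 were lower on the deposited scale, Lum (lumican) at -2.18, Col3a1 at -1.74 and Col1a2 at -1.59, and 1 was higher, Serpinh1. Both shares lie below those of all genes on that scale, 32.6% lower and 22.5% higher. On the abundant-gene scale 8 of 14 were lower and 1 higher, with a median of -1.08. The shares of all genes there were 46.5% and 0.0269%. Lum, Col3a1 and Col1a2 gave on the abundant-gene scale -3.05, -2.72 and -2.59. Col1a2, a chain of type I collagen, had 134 to 363 normalized counts in controls and 59.7, 115 and 47.1 in depleted tumours. Expected background made up 69.7%, 52.0% and 43.3% of the control levels of Lum, Col3a1 and Col1a2, and after subtraction they gave -1.63, -1.65 and -1.58 with 0 passing (limma adjusted p = 0.51, 0.26 and 0.44). Mmp3, a stromelysin, gave -2.98 on the deposited scale, -3.70 on the abundant-gene scale and -2.80 after subtraction (limma adjusted p = 0.046), with 19.2 to 29.6 normalized counts in controls and 4.22, 5.32 and 0 in depleted tumours. Rgs5 of pericytes gave 1.21 and 0.20 (limma adjusted p = 0.0096 and 0.63). Normal brain cell lists had medians on the abundant-gene scale of 0.03 for astrocytes, -0.34 for neurons and -0.83 for mature oligodendrocytes, with 1 member lower, Opalin of myelin. Without the second depleted tumour these were 0.18, 0.45 and 0.01, and without the third -0.60, -1.48 and -2.03.

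A fit over all 16 libraries, in which Type 2 tumours share the estimate of spread, called 0 of 26463 genes in Type 1 (limma; 8019 at an unadjusted p below 0.05, lowest adjusted p 0.0918). With the receptor RPM as a covariate it also called 0 (1128 at an unadjusted p below 0.05, lowest adjusted p 0.0769). In Type 1 the covariate and depletion cannot be told apart, so its slope comes mostly from Type 2 tumours. In that fit the receptor genes had a median of 0.06 and all genes of 0.00. The covariate is made from the reads of the receptor genes, so their median near 0 was set in advance. The macrophage identity list had a median of -0.60, Adgre1 gave -1.07, Mrc1 -0.82, Chil3 -1.47 and Csf1r -1.05, while mt-Rnr2 went to 0.51 and Gm10800 to 0.91. The mitosis and cell cycle list had a median of 0.89 with 22 of 22 above 0 and 0 called, beside 0.06 for expressed genes. Ndn gave 1.74, Ccnd2 1.56, Serpinh1 1.54 and Zbtb20 0.50, with adjusted p at or near 1 for each.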

How the data were processed

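The authors deposited gene values on a log2 scale, made from STAR 2.7.8a alignments to GRCm38 and with DESeq2, per the submitters' processing notes. The sources used here give neither the counting tool nor the annotation. The SMART-Seq v4 kit named in the labels' protocols does not mark strand, so antisense and overlapping genes cannot be told apart. The deposited log2 values are variance-stabilized, and were turned back to normalized counts. These were whole multiples of 1 read per library in 100.0% of values (tolerance 0.05 reads), which gave the recovered reads. The Type 1 table holds 30589 genes, of which 96.0% matched 1 gene of GENCODE vM21 for exon lengths.

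A normalized count of at least 10 in 3 or more libraries was required, which left 29708 genes for limma-trend on log2(normalized count + 1), 2-sided, with 6 residual degrees of freedom and Benjamini-Hochberg adjustment. Fold changes on this scale understate the change of low genes. The design assumed linear values, and no count model was run. The abundant-gene scale used the median ratio over 2000 genes. Expected background was exon length times the receptor reads per kb of the same library, and values under 0 were set to 0. The rule named the 12 largest rises and falls among called, expressed, non-overlapping genes with a mean of 50 or more, without predicted or unnamed gene models and receptor genes, then the smallest p, plus 9 fixed macrophage and leukocyte genes, up to 4 members of a list and 5 genes of each background kind. The members, lists and rules were chosen with earlier results of these data known. Alternatives on the abundant-gene scale, other than that scale itself, were chosen after seeing the data. Scripts were tested on simulated data. A few single genes are not reported here. Libraries of a group always differed by more than counting noise (chi-square over degrees of freedom of 8.28 or more). Tools were R with limma, and Python 3.11.15 with scipy 1.17.1.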

Additional observations from a re-analysis of the deposited data

Results flagged for a closer look

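Of 73 genes examined, 4 had 1 control library further from the other 4 than Dixon's 95% limit for 5 samples (0.71 of the range), which chance passes in about 1 of 20 groups. Adgre1 had 79.7 normalized counts in the third control, against 128 to 148 in the other 4 controls, and this library alone made the groups overlap on the deposited scale. Ighg2b and Iglc1, both immunoglobulin genes, had 1707 and 283 in the fifth control, against 18.4 to 38.2 and 3.68 to 13.4 in the others. Laptm5 had 213 in the second control, against 265 to 280 in the others.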

How the results depend on the processing

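The numbers of genes higher and lower depended on the scale, the level filter and the background term. On the deposited scale 6699 were higher, but 118 by upper quartile scaling, 1951 by quantile normalization, 2645 among genes with a mean of 500 or more, 4288 with only expressed genes fitted, and 0 in either fit of 16 libraries. The 9682 lower became 618 at a mean of 50 or more, 17 at 500 or more, 2329 by quantile normalization, 1309 with background subtracted, 31 with only expressed genes fitted and 0 with 16 libraries. Of expressed genes 4431 were higher, but 2469 (mean of 500 or more), 82 (upper quartile), 193 (quantile), 7 (abundant-gene scale) or 0 (16 libraries), and 33 were lower, but 16 and 14 at the 2 minimum means, 79 on the abundant-gene scale and 0 with 16 libraries. On the abundant-gene scale 8 were higher and 13809 lower. These were 301 and 1159 with background subtracted, 0 and 18 with only expressed genes, 0 and 17 with both, and 16 were higher with 4000 genes in the scale. Of expressed genes there, 7 and 79 became 1 and 24 with background subtracted, and 13 were higher with 4000 genes.

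Leaving out 1 library gave 4173 to 6849 higher and 8634 to 9355 lower on the deposited scale, 2814 to 4687 and 26 to 42 among expressed genes, and on the abundant-gene scale 3 to 25 and 12525 to 14199, or 3 to 21 and 61 to 150 among expressed genes. The 12.6-fold ratio of receptor reads ranged from 9.91 to 14.8, and missed the threshold in each case because the smallest exact permutation p then rises to 0.0571 or 0.0952. The receptor median of -3.28 became -1.67 with a pseudocount of 8, -1.38 by quantile normalization, -1.95 on the deposited log2 values, -0.70 with background subtracted and 0.062 with the receptor covariate. On the abundant-gene scale -3.95 became -0.94 with background subtracted, -2.08 with a pseudocount of 8 and -4.89 with limma-voom. The causes were not tested.

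Sample numbers 1 to 3 occur in both groups and did not pair the tumours, since correlations of same-numbered deviations ran from -0.12 to 0.32 and 1 of 3 depleted tumours correlated best with its own number. With the number as a replicate block, 6977 were higher and 8511 lower on the deposited scale, and on the abundant-gene scale 35 higher, 31 of them expressed, and 160 expressed genes lower.

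Single genes changed sign as follows, on the log2 scale. Against the deposited scale, the abundant-gene scale gave Aif1 -0.92, Cd68 -0.55, C1qa -0.77 and Laptm5 -0.999. Upper quartile scaling gave Aif1 -0.59, Cd68 -0.22, C1qa -0.43 and Laptm5 -0.66, quantile normalization Cd68 -0.12, C1qa -0.45, Iglc1 0.29 and Laptm5 -0.70, library quality weights Cd74 0.64, H2-Aa 1.07 and Laptm5 -0.14, and 16 libraries Aif1 -0.26, C1qa -0.088 and Laptm5 -0.32. The receptor covariate gave Aif1 -0.53, C1qa -0.29, mt-Rnr2 0.51, mt-Rnr1 0.53, Mroh2a 0.46, Platr19 0.22, Vmn2r53 0.14, Vmn2r76 0.43, Vmn1r55 0.50, Olfr1307 0.47, Flg 0.070, Cd163 0.19, Laptm5 -0.60 and Gm10800 0.91. Subtraction on the deposited scale gave Csf1r 0.20, Tmem119 0.0049, P2ry12 0.40, Ccr2 2.82, Ptprc 0.70, Myh6 1.27, Myh7 1.87, Tnnt2 1.18 and Cd163 0.22, and on the abundant-gene scale Ccr2 2.06, Myh6 0.37, Myh7 1.03 and Tnnt2 0.29. Leaving out 1 library gave Csf1r -0.41 to 0.043, Aif1 -0.18 to 0.27, Cd68 -0.16 to 0.95, C1qa -0.29 to 0.53, Tmem119 -1.30 to 0.047, P2ry12 -0.84 to 0.042, Scand1 -2.79 to 0.54, Npy -1.60 to 0.018, Pcp4l1 -1.79 to 0.031, Cd74 -1.93 to 1.08, H2-Aa -2.47 to 1.82, Ifit3 -0.88 to 0.031 and Laptm5 -0.26 to 0.30, and on the abundant-gene scale Cd74 -2.89 to 0.027 and H2-Aa -3.41 to 0.77. Depth limits genes near the receptor level, where most control reads of a gene are expected background.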

Other observations

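Some genes outside the lists, chosen after their values were seen, are given here as values. Y-linked genes were low and uneven: Ddx3y had 41.3, 126, 113, 31.4 and 31.2 normalized counts in controls and 0, 33.9 and 0 in depleted tumours. Kdm5d had 26.9, 112, 242, 42.3 and 44.4 in controls and 0, 27.2 and 0 in depleted tumours, and Eif2s3y had 9.87 to 141 and 0, 17.9 and 0. Expected background was 58.8%, 126% and 58.7% of their control levels.

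Magel2, an imprinted neighbour of Ndn on chromosome 7, had 97.0, 246, 82.8, 34.1 and 34.5 normalized counts in controls and 1014, 769 and 158 in depleted tumours, with the third depleted tumour below the second control. Its log2 fold change was 2.71 on the deposited scale (limma adjusted p = 0.0087), 1.71 on the abundant-gene scale (adjusted p = 0.076) and 4.14 after subtraction (adjusted p = 0.40). Of 6 tested imprinted genes of that chromosome 3 were higher on the deposited scale, with a median of 1.12, and 1 on the abundant-gene scale, with a median of 0.11. Of 9 tested genes of the HoxA cluster, which most forebrain cells do not express, 4 were higher on the deposited scale (median 1.34) and 0 higher and 2 lower on the abundant-gene scale (median 0.35). Among members at an expressed level, 3 of 5 in each list were higher on the deposited scale, beside 65.5% of all expressed genes. Of all genes, 22.5% were higher on the deposited scale. On the abundant-gene scale 0.0269% of all genes were higher and 46.5% lower.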
